A study of Mus musculus with 18 samples.

Results

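*C2cd2l*, *Gm15728* and *Ptp4a2* were the genes with the smallest *P* values for a change of translation efficiency (TE) in the *M*-cKO cortex compared to Ctrl, the first 2 among genes with higher TE and *Ptp4a2* first among genes with lower TE. They are 3 of 55153 genes counted by RNA-seq, and 3 of 13208 genes in which TE was tested. TE is the amount of Ribo-seq fragments of a gene in relation to its RNA. RNA-seq measured RNA in whole cortex. Ribo-seq measured short fragments left after RNase I, called footprints here, which ribosomes are meant to have protected. Whether they did so for a given gene was not tested. Cortices were from C57BL/6 mouse embryos at E15.5, with 3 libraries per genotype and assay and 18 in all, labelled as biological repeats. Ctrl was wild type, *F*-cKO was *Fto*(f/f, *Emx1*-cre) and *M*-cKO was *Mettl3*(f/f, *Emx1*-cre), and per the methods the floxed mice had a mixed background of C57/BL6 and another strain. The *Emx1* promoter drives Cre in the dorsal telencephalic lineage, so that blood vessels, meninges, blood cells and neurons from the ventral telencephalon in the same tissue keep both genes. The labels name no Cre or floxed allele for Ctrl. Since the tissue is bulk, fewer cells of a type and less RNA per cell cannot be told apart.

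Because the members were chosen by the comparison of TE between *M*-cKO and Ctrl, all *M*-cKO values of these genes are descriptions and carry no test. Their *F*-cKO values were tested with edgeR's quasi-likelihood test across all genes, but with the same Ctrl libraries. A gene was called higher or lower at an adjusted *P* below 0.05. The label of largest shift holds in part: among 6914 genes with a positive TE change, *Gm15728* had rank 3 by size and *C2cd2l* rank 18, and *Ptp4a2* had rank 134 among 6294 genes with a negative change. Within the 249 genes called higher (1.89% of genes tested) they had rank 2 and rank 7, and within the 156 genes called lower (1.18%) *Ptp4a2* had rank 24. The next genes by *P* were *Mfge8*, with a log2 TE change of 2.25 ± 0.18 (SE), and *Actg1*, with -1.43 ± 0.19. The members just inside were *C2cd2l*, at 3.44 ± 0.27, and *Ptp4a2*, at -0.98 ± 0.12.

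Mettl3 is the catalytic subunit of the enzyme that places N6-methyladenosine (m6A) on mRNA, and Fto is a demethylase. Reader proteins bind m6A and affect splicing, decay and translation of an mRNA. Translation of many mRNAs is also set by how strongly ribosomes are recruited and by short reading frames ahead of the coding sequence. C2cd2l, also called TMEM24, is anchored in the endoplasmic reticulum (ER), bridges it to the plasma membrane and carries phosphatidylinositol to that membrane. Ptp4a2, also called PRL2, is a prenylated phosphatase that binds the CNNM proteins of magnesium transport. *Gm15728* is annotated as a long noncoding RNA (lncRNA).

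Positions were taken from the RefSeq annotation of GRCm38.p6. *C2cd2l* (ENSMUSG00000032120) lies at chr9:44309237-44320282, *Gm15728* (ENSMUSG00000086075) at chr5:117389122-117391460 and *Ptp4a2* (ENSMUSG00000028788) at chr4:129811165-129850003. No RefSeq gene overlaps a member on either strand. Within 10 kb, *Hinfp* is 3520 bases and *Dpagt1* 5574 bases from *C2cd2l*, *Rfc5* is 98 bases from *Gm15728*, and the lncRNA *1700108I11Rik*, which was not analysed here, is 2499 bases from *Ptp4a2*. Genes that only the Ensembl annotation holds were not examined.

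*Gm15728* and *Rfc5* start head to head, and the sequence is shown because it holds both starts. The window chr5:117388872-117389171 is printed on the + strand of GRCm38.p6, from RefSeq, with the 98 bases that lie between both genes in capitals. Of its 300 bases, the first 152 belong to *Rfc5*, which is transcribed from the other strand, and the last 50 to *Gm15728*.
Gm15728 promoter window: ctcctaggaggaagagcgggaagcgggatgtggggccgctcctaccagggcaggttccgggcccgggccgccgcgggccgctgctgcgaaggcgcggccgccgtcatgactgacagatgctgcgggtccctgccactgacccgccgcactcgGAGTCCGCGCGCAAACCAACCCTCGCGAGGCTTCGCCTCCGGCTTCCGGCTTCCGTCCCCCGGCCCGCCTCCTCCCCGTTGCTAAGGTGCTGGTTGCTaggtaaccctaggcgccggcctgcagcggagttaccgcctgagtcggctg
It has a GC content of 71.7%, compared with a median of 52.7% over 32851 promoter windows of the same length, and 7.36% of them have a GC content as high or higher. It holds 35 CG dinucleotides, against a median of 7, and 6.95% of windows hold as many or more.

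Libraries held between 18504094 and 22592406 counts in RNA-seq and between 10973699 and 35853227 in Ribo-seq, so that depth differed 3.27 times between Ribo-seq libraries. *F*-cKO replicate 2 was the shallowest Ribo-seq library and stood apart, with a median correlation to other libraries of 0.891 compared with 0.946 to 0.978 for the others, and with a summed RPKM of 4 endothelial markers of 80.4 compared with at most 8.07 in Ctrl libraries. All 9 markers of cortical tissue were present in each group. *Fto* RPKM in Ribo-seq was 21.8 ± 4.15 (SD, n = 3) in Ctrl and 3.35 ± 1.08 in *F*-cKO, with no overlap. *Mettl3*, of which the knockout removes only some exons, was at 9.45 ± 0.42 RPKM in Ctrl and 6.40 ± 0.38 in *M*-cKO, while its RNA rose from 5.78 ± 0.68 to 8.26 ± 0.40 FPKM.

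*C2cd2l* had about 10 times the Ribo-seq fragments of Ctrl in the *M*-cKO cortex, with similar RNA. Its footprints were at 2.63, 1.66 and 2.21 RPKM in the 3 Ctrl libraries, and at 30.4, 20.9 and 16.5 RPKM in the *M*-cKO libraries. All 3 *M*-cKO libraries were above all Ctrl libraries, as for 17.6% of 14314 genes. The counts behind these values were 457, 244 and 323 in Ctrl and 2925, 1484 and 1822 in *M*-cKO. Its RNA was at 8.07, 7.93 and 7.48 FPKM in Ctrl and 7.74, 7.69 and 8.49 FPKM in *M*-cKO, and these ranges overlap. Among the 14348 genes with complete Ribo-seq counts, the footprint level of *C2cd2l* was thus between percentiles 27.8 and 37.1 in Ctrl. In *M*-cKO it was between 74.4 and 84.8. Its RNA, ranked among the same genes, remained between 56.5 and 59.4 in both.

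The log2 change of *C2cd2l* in *M*-cKO was 3.39 ± 0.26 (SE) for footprints and 0.02 ± 0.07 for RNA. TE, as mean Ribo-seq RPKM over mean RNA-seq FPKM, was 0.277 in Ctrl and 2.84 in *M*-cKO, a ratio of 10.3. The scaling of deposited RPKM and FPKM differed 1.21 times between the assays, alike for the 3 members, so that the level of TE holds only on this scale. Ribo-seq and RNA-seq libraries are not from the same samples as far as the labels tell, so that each group has 9 possible ratios. The Ctrl ratios ran from 0.206 to 0.352 and the *M*-cKO ratios from 1.95 to 3.96, and all 9 *M*-cKO ratios were above all 9 Ctrl ratios, as for 4.22% of genes tested. By TE *C2cd2l* moved from percentile 16.1 of 13208 genes in Ctrl to percentile 94.9 in *M*-cKO.

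In *F*-cKO *C2cd2l* footprints were at 1.83, 3.15 and 1.94 RPKM and its RNA at 8.53, 7.77 and 6.66 FPKM, which overlap with Ctrl in both assays. The highest footprint value is that of replicate 2, the library that stood apart. TE was 0.301, with a log2 change of 0.16 ± 0.37 (edgeR adjusted *P* = 0.863), and without that library the change was -0.18. No gene was called for TE in *F*-cKO (0% of 13225 genes), with 411 genes higher and 817 lower at an unadjusted *P* below 0.05, and DESeq2 called 5 higher and 39 lower. Compared directly, the TE change of *M*-cKO against *F*-cKO was 3.27 ± 0.39.

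Of the 3 members, *Gm15728* showed the greatest contrast between assays. In *M*-cKO its footprints were among the higher, and its RNA among the lower, of the genes with complete Ribo-seq counts. Its footprints were at 3.12, 1.58 and 2.79 RPKM in Ctrl and at 54.2, 70.1 and 59.6 RPKM in *M*-cKO, from counts of 330, 142 and 249 and of 3180, 3034 and 4005. The lowest *M*-cKO library was above every Ctrl library, as for 17.6% of genes. RNA of *Gm15728* was at 1.00, 0.940 and 1.13 FPKM in Ctrl and at 0.841, 0.876 and 0.889 FPKM in *M*-cKO, from 63 to 80 counts per library. Thus its RNA was lower in all 3 *M*-cKO libraries than in Ctrl, as for 21.5% of 16968 genes, opposite to its footprints. Among the 14348 genes with complete Ribo-seq counts, its footprint level was between percentiles 27.0 and 40.4 in Ctrl and between 91.3 and 93.8 in *M*-cKO. Its RNA, ranked among the same genes and not among all genes of RNA-seq, was between 17.2 and 19.9 in both.

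The log2 change of *Gm15728* in *M*-cKO was 4.63 ± 0.28 for footprints and -0.24 ± 0.18 for RNA. Its TE was 2.44 in Ctrl and 70.6 in *M*-cKO, a ratio of 28.9, and the log2 TE change was 4.94 ± 0.32. The *M*-cKO value rests on a mean RNA of 0.869 FPKM, and it was lower with a pseudocount, as given in the last section. The 9 ratios of Ctrl ran from 1.41 to 3.31 and those of *M*-cKO from 61.0 to 83.4. TE of *Gm15728* was already at percentile 89.7 in Ctrl and reached 99.8 in *M*-cKO.

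Among lncRNAs *Gm15728* had rank 1 of 394 by footprint change and rank 1 of 344 by TE change in *M*-cKO, and rank 456 of 833 by RNA change. The median log2 footprint change of these lncRNAs was -0.08. By footprint RPKM it had rank 3 of 344 lncRNAs in *M*-cKO, 82 in Ctrl and 109 in *F*-cKO, compared with rank 249, 254 and 284 by RNA FPKM. *Gm15728* held between 0.116% and 0.241% of all lncRNA fragments in Ctrl libraries and between 2.16% and 3.96% in *M*-cKO. Genes annotated as protein coding held 83.4% to 90.0% of Ribo-seq counts in *M*-cKO libraries, compared with 91.3% to 92.7% in Ctrl and 89.6% to 92.3% in *F*-cKO, and the part of this shift in the result was not tested. Totals per gene do not show where in *Gm15728* or *C2cd2l* the fragments lie, whether they form a reading frame or whether ribosomes protected them.

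In *F*-cKO *Gm15728* footprints were at 3.19, 0.139 and 1.91 RPKM, from 180, 5 and 187 counts, and overlap with Ctrl. The 5 counts are from replicate 2. Its RNA was at 0.628, 0.659 and 0.728 FPKM, with all 3 libraries below all Ctrl libraries, as for 19.6% of 16944 genes. *Gm15728* RNA fell by 0.61 ± 0.19 on the log2 scale (edgeR adjusted *P* = 0.0465), and it was the member called lower of the 3, where 9.57% of 16944 genes were called lower. This call was lost without any 1 of the 6 libraries, and over the alternatives its adjusted *P* ran from 0.0281 to 0.157, with 0.0952 from DESeq2. Markers of meninges, erythroid cells and endothelium were also lower in sum in *F*-cKO RNA, with values given beside the marker lists. The endothelial sum is mostly that of *Cldn5*. The part of these markers in this change was not tested. TE was 2.60, with a log2 change of 0.05 ± 0.88 (edgeR adjusted *P* = 0.986), a spread that is too wide to show a change of a few fold.

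**Figure D1:**
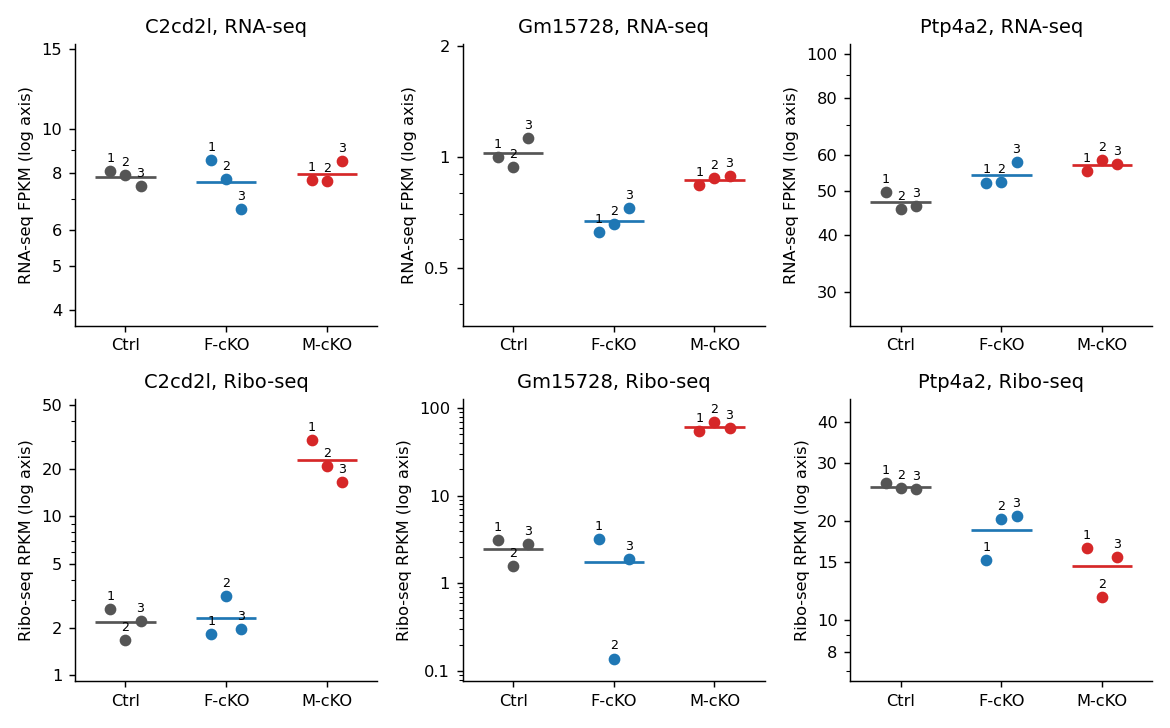
Levels of *C2cd2l*, *Gm15728* and *Ptp4a2* in every library, as RNA-seq FPKM (upper panels) and Ribo-seq RPKM (lower panels) on log axes by genotype. Each point is a library with its replicate number and each line is the group mean, and *M*-cKO footprints lie between 16.5 and 30.4 RPKM for *C2cd2l*, between 54.2 and 70.1 for *Gm15728* and between 11.7 and 16.5 for *Ptp4a2*.

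*Ptp4a2* went the other way in both assays: its footprints were lower and its RNA higher in *M*-cKO than in Ctrl. Footprints were at 26.0, 25.2 and 24.9 RPKM in Ctrl and at 16.5, 11.7 and 15.5 RPKM in *M*-cKO. RNA was at 49.8, 45.6 and 46.3 FPKM in Ctrl and at 55.3, 58.4 and 57.3 FPKM in *M*-cKO. The groups do not overlap in either assay, where 20.4% of genes had all *M*-cKO footprints below Ctrl and 23.3% had all *M*-cKO RNA above Ctrl. *Ptp4a2* was the most abundant member in RNA, with 3795 to 5549 RNA-seq counts per library. In Ribo-seq it had 624 to 3390 counts per library. By footprints it was the most abundant member in Ctrl and *F*-cKO, but the least abundant in *M*-cKO. The log2 change in *M*-cKO was -0.79 ± 0.11 for footprints and 0.26 ± 0.06 for RNA, each fitted within its assay, and the TE change, fitted over both assays, was -0.98 ± 0.12.

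TE of *Ptp4a2* was 0.538 in Ctrl, compared with 0.345 for *F*-cKO and 0.256 for *M*-cKO, the latter at 0.476 of Ctrl. The 9 ratios ran from 0.501 to 0.571 in Ctrl, from 0.262 to 0.396 in *F*-cKO and from 0.201 to 0.299 in *M*-cKO. Both knockouts were therefore below all Ctrl ratios, and the knockouts overlap each other. All 9 ratios were below all 9 Ctrl ratios for 3.69% of 13225 genes in *F*-cKO, and for 8.02% of 13208 genes in *M*-cKO. By TE *Ptp4a2* was at percentile 32.8 in Ctrl, and at 13.3 and 13.8 in *F*-cKO and *M*-cKO.

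In *F*-cKO *Ptp4a2* footprints were at 15.2, 20.2 and 20.7 RPKM and its RNA at 52.3, 52.3 and 57.9 FPKM. Footprints of all 3 libraries were below Ctrl, as for 4.13% of 14335 genes, and RNA of all 3 was above Ctrl, as for 22.0% of 16944 genes. Both directions are those of *M*-cKO, which was set against the same Ctrl libraries. None of the *F*-cKO changes passed the test. The log2 change was -0.38 ± 0.19 for footprints (edgeR adjusted *P* = 0.730), 0.19 ± 0.06 for RNA (edgeR adjusted *P* = 0.0671) and -0.60 ± 0.22 for TE (edgeR adjusted *P* = 0.494). The RNA change was called by DESeq2 (adjusted *P* = 0.0456). The TE change had an unadjusted *P* of 0.0185, and it was negative in all 18 alternatives. Compared directly, the TE change of *M*-cKO against *F*-cKO was -0.40 ± 0.22.

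**Figure D2:**
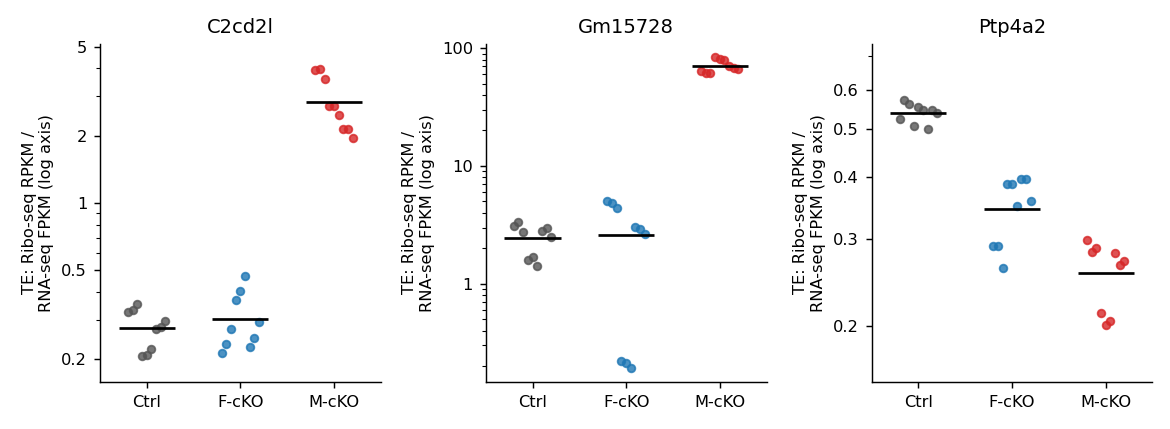
TE of each member by genotype, as Ribo-seq RPKM over RNA-seq FPKM on a log axis. Points are the 9 ratios of a group's Ribo-seq and RNA-seq libraries, which are not independent, and the black line is the ratio of means, at 0.277, 0.301 and 2.84 for *C2cd2l*, 2.44, 2.60 and 70.6 for *Gm15728*, and 0.538, 0.345 and 0.256 for *Ptp4a2* in Ctrl, *F*-cKO and *M*-cKO.

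**Figure D3:**
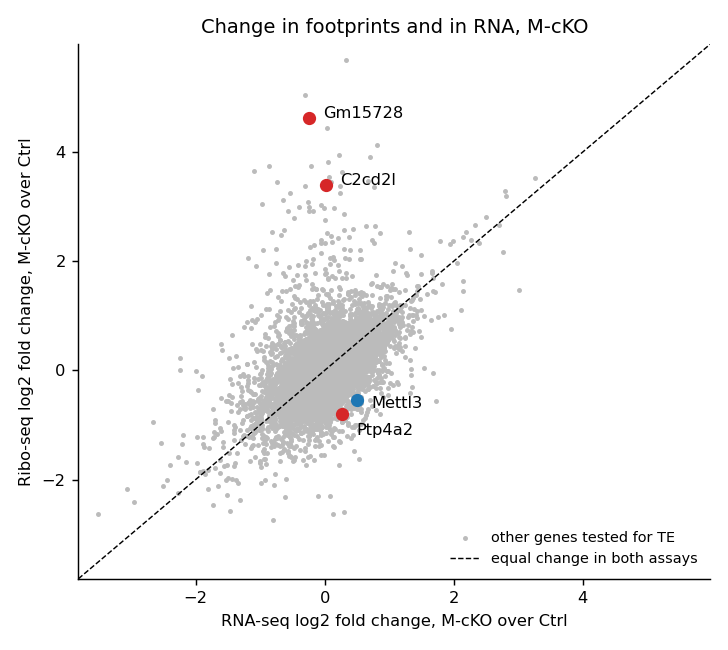
The log2 change of footprints against that of RNA in *M*-cKO compared to Ctrl for 13208 genes (grey points), with the 3 members (red) and *Mettl3* (blue). *C2cd2l* and *Gm15728* lie far above the line of equal change with little RNA change (0.02 and -0.24), whereas *Ptp4a2* lies below it with RNA at 0.26 and footprints at -0.79.

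Markers of the ganglionic eminence, the ventral source of interneurons, were higher in *M*-cKO, and some of them in *F*-cKO. Their summed level over 6 genes ranged from 79.4 to 80.9 FPKM in Ctrl, from 77.2 to 107 in *F*-cKO and from 112 to 151 in *M*-cKO. All 6 were called higher in *M*-cKO RNA, where 15.5% of 16968 genes were called higher, and 4 of 6 in *M*-cKO footprints, where 7.13% of 14314 genes were called higher. In *F*-cKO RNA 3 of 6 were called higher and none lower, where 11.5% of 16944 genes were called higher, with a median log2 change of 0.40 compared with 0.99 in *M*-cKO. No gene at all was called in *F*-cKO footprints or for TE in *F*-cKO. For TE in *M*-cKO none of the 6 was called, where 3.07% of 13208 genes were. Summed footprints were at 32.4 to 48.1 RPKM in Ctrl and 53.2 to 110 in *M*-cKO. Of 9 markers of cortical tissue, 3 were called higher and 1 lower in *M*-cKO in each assay, where 14.1% of genes were called lower in RNA and 7.50% in footprints, and 5 were called higher in *F*-cKO RNA, beside the same 11.5% of genes. The markers of erythroid cells (5 genes), meninges (5), endothelium (4), microglia (4) and choroid plexus (3) had no call in *M*-cKO against Ctrl in either assay or for TE. In *F*-cKO RNA 2 of 5 meningeal, 1 of 5 erythroid and 1 of 4 endothelial markers were called lower and none of these higher, where 9.57% of 16944 genes were called lower, with median log2 changes of -1.20, -0.57 and 0.01. The summed RNA of each of these 3 lists was lower in all *F*-cKO libraries than in Ctrl, at 2.35 to 8.98 FPKM compared with 10.5 to 20.3 for meninges, 357 to 439 compared with 475 to 877 for erythroid cells, and 33.4 to 38.7 compared with 45.5 to 49.4 for endothelium. *Cldn5*, with a mean of 37.6 FPKM in Ctrl, held most of the endothelial sum, while the median change of that list was 0.01. The part of cell composition in the changes of *C2cd2l*, *Gm15728* and *Ptp4a2* was not tested.

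The neighbours of the members were examined for the same changes. Rfc5 is a subunit of the clamp loader in DNA replication, and its footprints were at 8.42, 7.50 and 6.88 RPKM in Ctrl and 7.06, 6.01 and 5.98 RPKM in *M*-cKO, which overlap. Its log2 change in *M*-cKO was -0.25 ± 0.12 for footprints (edgeR adjusted *P* = 0.193) and 0.10 ± 0.10 for RNA (edgeR adjusted *P* = 0.484), beside 4.63 and -0.24 for *Gm15728*. Hinfp is a transcription factor of histone H4 genes, with log2 changes of -0.05 ± 0.11 for footprints and -0.08 ± 0.08 for RNA. Dpagt1 starts the synthesis of the lipid-linked sugar used in N-glycosylation, and its changes were -0.37 ± 0.25 for footprints and -0.05 ± 0.08 for RNA. None of these 3 neighbours was called in *M*-cKO or *F*-cKO in any of RNA-seq, Ribo-seq or TE.

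**Figure D4:**
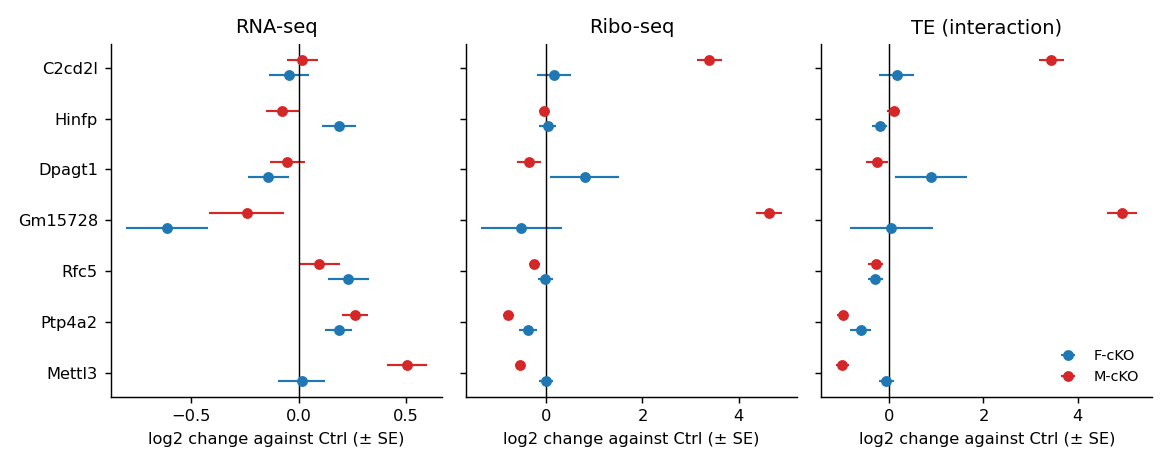
Log2 change against Ctrl (± SE) for the members, for their neighbours *Hinfp* and *Dpagt1* (of *C2cd2l*) and *Rfc5* (of *Gm15728*), and for *Mettl3*, in RNA-seq, Ribo-seq and TE, with *F*-cKO in blue and *M*-cKO in red. Footprint changes of *C2cd2l* (3.39) and *Gm15728* (4.63) in *M*-cKO stand beside neighbours between -0.37 and -0.05.

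Other genes related to *Ptp4a2* were described as a list of PRL phosphatases and magnesium transporters. None of 16 was called for TE or footprints in *M*-cKO, where 3.07% of 13208 genes were called for TE in either direction, and their median log2 TE change was 0.08, compared with 0.02 over all genes tested. Ptp4a1 and Ptp4a3 are the other PRL phosphatases. *Ptp4a1* had a TE change of -0.15 ± 0.35 and *Ptp4a3* of -0.35 ± 0.15 (edgeR adjusted *P* = 0.199). *Ptp4a1* is split over a pair of gene identifiers in the tables, of which the one with more counts was used. In RNA, 2 of 16 were called higher and 3 lower in *M*-cKO, where 15.5% of 16968 genes were called higher and 14.1% lower. *Cnnm3*, which encodes a PRL binding partner in magnesium transport, rose by 0.45 ± 0.07 on the log2 scale (edgeR adjusted *P* = 0.00111) and *Ptp4a3* rose by 0.32 ± 0.07 (edgeR adjusted *P* = 0.00535). *Slc41a2*, a magnesium transporter, fell by 0.59 ± 0.15 (edgeR adjusted *P* = 0.0121). In *F*-cKO RNA, 1 was called higher and 3 lower, where 11.5% of genes were called higher and 9.57% lower, among them *Ptp4a3*, which fell by 0.39 ± 0.08 (edgeR adjusted *P* = 0.0125). The median TE change of the list in *F*-cKO was 0.49 with all libraries and -0.11 without replicate 2 of Ribo-seq.

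Of the ER-plasma membrane contact proteins other than C2cd2l, 1 of 23 was called for TE in *M*-cKO, a share near the 3.07% of all genes tested. TE of *Ano8*, which encodes an ER protein of these contacts, rose by 0.64 ± 0.14 on the log2 scale (edgeR adjusted *P* = 0.0290), and it was called in 11 of 18 alternatives, with an adjusted *P* between 0.00166 and 0.733. Its footprints were at 4.90 ± 0.38 RPKM (SD, n = 3) in Ctrl and 6.13 ± 0.81 in *M*-cKO. The paralogue *C2cd2* had a TE change of 0.67 ± 0.37 (edgeR adjusted *P* = 0.320), with footprints of 0.538 ± 0.040 RPKM in Ctrl and 0.749 ± 0.392 in *M*-cKO, so that footprints of *C2cd2* did not differ beyond their spread. Among tethers of the extended synaptotagmin family, the TE change was 2.09 ± 0.54 for *Esyt3* (edgeR adjusted *P* = 0.0531), -0.66 ± 0.39 for *Esyt1* and 0.09 ± 0.19 for *Esyt2*. *Esyt3* was close to the lowest levels measured, with footprints of 0.073 ± 0.038 RPKM in Ctrl and 0.128 ± 0.070 in *M*-cKO, from 9 to 21 counts per library, and its RNA fell from 0.642 to 0.272 FPKM (edgeR adjusted *P* = 0.000728). The list's median was 0.10. In RNA 8 of 23 were called lower and 2 higher in *M*-cKO, where 14.1% of genes were called lower and 15.5% higher, with a median log2 change of -0.16. In footprints the list's median log2 change in *M*-cKO was 0.19, with 14 of 24 genes positive and 10 negative. Of the 24, 3 were called lower and none higher, where 7.50% of 14314 genes were called lower. They were *Vapa*, an ER receptor for lipid transfer proteins, which fell by 0.60 ± 0.10, *Gramd1b*, a cholesterol carrier, which fell by 0.55 ± 0.10, and *Osbpl8*, a phosphatidylserine carrier, which fell by 0.40 ± 0.09 (edgeR adjusted *P* = 0.0129, 0.0163 and 0.0276). RNA of *Gramd1b* fell by 0.58 ± 0.06 and that of *Osbpl8* by 0.24 ± 0.08 (edgeR adjusted *P* = 5.53e-05 and 0.0401), while *Vapa* RNA was at -0.16 ± 0.06 (edgeR adjusted *P* = 0.0644), and none of the 3 was called for TE.

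The list of phosphoinositide supply concerns the lipid that C2cd2l carries and the lipids made from it. None of its 20 genes was called for TE in *M*-cKO, where 3.07% of 13208 genes were, and their median was -0.13. Footprints of 3 were called lower and none higher, where 7.50% and 7.13% of 14314 genes were. *Pi4ka*, a kinase that makes phosphatidylinositol 4-phosphate at the plasma membrane, fell by 0.47 ± 0.09, *Sacm1l*, a phosphatase of the same lipid, fell by 0.38 ± 0.10, and *Pitpnb*, a phosphatidylinositol carrier, fell by 0.34 ± 0.09 (edgeR adjusted *P* = 0.0224, 0.0412 and 0.0460). In RNA 2 of 20 were called higher and 2 lower, where 15.5% and 14.1% of genes were. None of these 3 carried an RNA call, and *Pi4kb*, a Golgi kinase, rose by 0.48 ± 0.07 in RNA (edgeR adjusted *P* = 0.000502).

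*Ptp4a2* mRNA is known to carry a short reading frame ahead of its coding sequence through which magnesium affects its translation, so other mRNAs with such regulatory reading frames were described. None of 13 was called for TE in *M*-cKO, where 3.07% of genes were, and their median was -0.15. *Ddit3*, a stress-induced transcription factor, had the smallest *P*, with 0.79 ± 0.20 (edgeR adjusted *P* = 0.0515). *Atf4*, the transcription factor best known for this form of control, was at -0.13 ± 0.14. In RNA 3 of 14 were called higher and none lower, where 15.5% and 14.1% of genes were. These were *Slc35a4* by 0.61 ± 0.06, *Ppp1r15b* by 0.37 ± 0.06 and *Amd1* by 0.21 ± 0.07 (edgeR adjusted *P* = 8.28e-05, 0.00171 and 0.0338). In *F*-cKO no gene of any list could be set apart by TE calls, since 0% of 13225 genes were called.

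**Figure D5:**
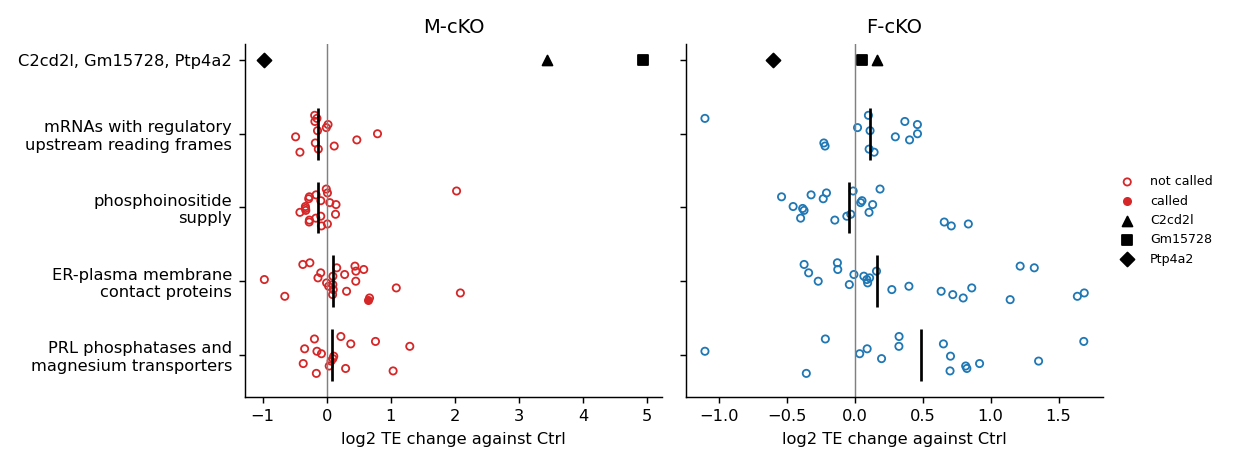
Log2 TE change against Ctrl of each gene of the 4 lists in *M*-cKO and *F*-cKO, with the members above. Filled circles passed an adjusted *P* below 0.05, open circles did not, and black lines are medians, between -0.15 and 0.10 in *M*-cKO, where the members are at 3.44, 4.94 and -0.98.

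Genes whose level followed that of a member over the 9 libraries of an assay were found by the correlation of log2(CPM + 1). This is given as a description, since the 9 libraries fall into 3 genotypes, which any pair of genes shares. The closest genes were also picked from 15136 genes in RNA-seq and 13763 in Ribo-seq, so that high correlations are easily found. In Ribo-seq *C2cd2l* was followed most closely by *Ano3* (Pearson's r = 0.990), the microRNA gene *Mir652* (0.982) and *L3hypdh* (0.977). *Mir652* had a mean of 197 RPKM in *M*-cKO, compared with 39.4 in Ctrl and 39.2 in *F*-cKO. *Gm15728* was followed by *Mrpl43* (0.989), *Rpusd2* (0.988) and *Rrs1* (0.986), of which Mrpl43 is a mitochondrial ribosomal protein and Rrs1 a factor of ribosome assembly. *Mrpl43* had 98.3 RPKM in *M*-cKO, compared with 36.7 in Ctrl and 33.1 in *F*-cKO. *Ptp4a2* footprints were followed by *1300002E11Rik* (0.985), *Npy1r* (0.959), a neuropeptide Y receptor, and *4930402H24Rik* (0.957). In RNA the closest were *Gm6419* for *C2cd2l* (0.970), *Colgalt1* for *Gm15728* (0.987) and *Lpar6* for *Ptp4a2* (0.976), so that no gene followed a member in both assays among the 3 closest.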

How the data were processed

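RNA-seq and Ribo-seq of E15.5 cortices were analysed for 3 genes in 18 libraries, grouped by the labels' genotype and assay. The members and gene lists were chosen with earlier results of these data known. For RNA-seq the authors aligned paired reads with HISAT2 2.0.5, and the deposited values are read counts and FPKM per gene. For Ribo-seq the authors mapped fragments with TopHat2, counted them with HTSeq and deposited counts and RPKM. The labels' processing notes name mm10. The strand setting, annotation and Ribo-seq adapter settings are not given in the sources used here. The gene lengths implied by deposited counts, FPKM and RPKM and the count totals (median over libraries) were 1.21 times as long in RNA-seq as in Ribo-seq for each member, so that a TE ratio carries a scale factor between assays that is common to the 3 genes. Of 54838 genes counted by Ribo-seq, 40490 have blanks in most libraries and were left out, which leaves 14348. Symbols matched 54723 of 55153 genes.

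Counts were tested in R 4.3.3 with edgeR 4.0.16 (filterByExpr in each assay, minimum count 10, minimum total count 15, TMM, quasi-likelihood test, Benjamini-Hochberg adjustment over all genes). TE change was the interaction of assay and genotype over 12 libraries, and single assays were fitted over 6. The fits were tested on simulated data. RiboDiff, which the authors used for TE, was not run. Alternatives were DESeq2 1.42.0, RLE scaling, no filter, the replicate number as a block, all genotypes in 1 fit, protein-coding genes with the members only, each library left out, pseudocounts of 0.1 and 1, and TMM CPM. Named genes are the members, both deleted genes, neighbours within 10 kb, list genes with the smallest adjusted *P*, the 3 most correlated genes per member and assay (mean CPM of at least 1), and the genes next to a member by *P*. Replicates are labelled biological repeats, but by the methods' wording the Ribo-seq cortices may have come from 1 litter, so *P* values measure the spread between these samples, which may be less than that between litters. No duplicate libraries were found.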

Additional observations from a re-analysis of the deposited data

How the results depend on the processing

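TE changes of the members in *M*-cKO kept their direction in every alternative, and leaving out single libraries gave 3.20 to 3.61 for *C2cd2l*, 4.70 to 5.14 for *Gm15728* and -1.06 to -0.89 for *Ptp4a2*. The number of genes called for TE in *M*-cKO was 405, 1037 with DESeq2 and 11 with all 3 genotypes in 1 fit, and 65 to 1054 without single libraries. For *M*-cKO footprints it was 2093, 35 with all 3 genotypes in 1 fit, 1319 with the replicate block and 177 to 2547 without single libraries. For *F*-cKO, TE had 0 calls, 44 with DESeq2 and 0 to 15 without single libraries, and footprints had 0 calls, 6 with DESeq2, 1 with all 3 genotypes in 1 fit and 0 to 1 without single libraries. For *M*-cKO against *F*-cKO, TE had 0 calls, 18 with DESeq2, 1 with RLE, 5 with all 3 genotypes in 1 fit and 0 to 5 without single libraries, and footprints had 0 calls, 206, 25 and 0 to 5 in the same order without RLE. RNA calls in *F*-cKO numbered 3576, 2130 with the replicate block and 1543 to 3474 without single libraries, and in *M*-cKO against *F*-cKO 4599 and 2767 to 4566.

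The *Gm15728* RNA change in *F*-cKO lost its call with DESeq2 (-0.61), without a filter (-0.61) and with the replicate block (-0.62), and without each of the 6 libraries in turn (-0.68 to -0.54). *Ptp4a2* RNA in *F*-cKO passed with DESeq2 (0.19) and with all 3 genotypes in 1 fit (0.20). Changes near 0 turned sign. The *Gm15728* TE change in *F*-cKO was -0.13 with the replicate block and -0.56 to 0.60 without single libraries. For *C2cd2l* without single libraries, the range was -0.18 to 0.29 for TE, -0.12 to 0.047 for RNA and -0.23 to 0.36 for footprints in *F*-cKO, -0.022 to 0.048 for RNA in *M*-cKO, and 3.02 to 3.63 for TE and -0.025 to 0.14 for RNA in *M*-cKO against *F*-cKO. With a pseudocount of 1 the *C2cd2l* ratio in Ctrl was 0.359 and the *Gm15728* ratio in *M*-cKO 33.3, and with TMM CPM the latter was 59.0 and the *Ptp4a2* ratio in Ctrl 0.437. CPM uses neither the lengths nor the totals behind RPKM and FPKM, whose scaling differed 1.21 times between assays for each member. A pseudocount of 1 exceeds the mean RNA of *Gm15728* in *M*-cKO (0.869 FPKM), which lowers its ratio. For *C2cd2l* in Ctrl it is added to mean footprints of 2.17 RPKM and mean RNA of 7.83 FPKM. The cause of any other shift was not tested. Same-numbered libraries did not deviate together in every pair (correlations from -0.32 to 0.29), so the replicate numbers were not taken as pairs. With 3 libraries a group, RNA of *Gm15728* (46 to 80 counts) and its 5 footprint counts in *F*-cKO replicate 2 limit what can be detected.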
